A study of Drosophila melanogaster with 3 samples.

Results

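The genes described here encode 10 factors that bind, or help to bind, Polycomb response elements in the fly: Trl, psq, lolal, Adf1, pho, phol, Spps, Dsp1, cg and z. They were taken as a named list, by a rule that sets no threshold on a measured value, and make up 10 of the 13945 protein-coding genes annotated on the 6 chromosome arms. All 10 symbols were found in Ensembl release 115, and all 10 gene spans were the same in RefSeq. Binding of E(z) was measured by ChIP-seq, which sequences the DNA that comes down with a precipitated protein, in whole prepupae of strain E(z)-GFP (3 biological replicates, both sexes pooled, age unknown). All 3 replicates came from 1 transgenic line that stably expresses E(z) with GFP fused to its C-terminus, and the fusion was precipitated with anti-GFP, so the values describe the tagged protein averaged over all tissues. There was 1 group, and the control experiment that the labels name was not used here, so no comparison between conditions could be made and no test was run.

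Polycomb response elements are DNA stretches that recruit Polycomb complexes to developmental genes in flies. Several sequence-specific proteins act together at such elements, and E(z), the methyltransferase of Polycomb repressive complex 2 (PRC2), then marks the surrounding chromatin on lysine 27 of histone H3. The question put to the data here was whether E(z)-GFP lay at the genes of the recruiting factors themselves.

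The optimal list of the authors, which kept peaks past a reproducibility threshold, had 5623 entries of 424 bp median width. Their relaxed lists, 1 per replicate and 1 for the pooled replicates, had 30000 entries each. A peak's summit is its highest point. Peaks were ranked within each list by the authors' signal value, with rank 1 the strongest. The lists do not give sequencing depth, so the counting precision behind a rank is unknown. A summit was given to a gene when it lay in the gene's span or within 5 kb of it, and distances to a transcription start site (TSS) are positive downstream.

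E(z)-GFP summits lay at 8 of the 10 genes, and 37.0% of all 13945 protein-coding genes had one by the same rule. The member spans ran from 2.78 kb (z) to 59.4 kb (psq), all above the protein-coding median of 2.17 kb. Neither this background nor those below were matched for gene length, and the effect of length on the shares was not tested. The members held 26 optimal summits, of which 13 were at psq, 3 at Trl, 2 each at Adf1, phol, Spps and Dsp1, and 1 each at lolal and cg, while pho and z had none. The nearest TSS belonged to the member itself for 19 of the 26 summits, and these 19 were spread over 5 genes: Trl, psq, lolal, Adf1 and Dsp1. At phol, Spps and cg every optimal summit was nearest to the start of another gene. By the 5 kb rule, each summit outside psq was taken in by 2 to 5 protein-coding genes, the member included. Within 1 kb of their own TSS, 5 of 10 members had a summit, against 16.1% of all protein-coding genes. Inside the gene span the count was again 5 of 10, against 11.6%. Searching 2 kb around the span found 6 of 10 members, against 26.1% of all genes, and searching 10 kb found 9, against 51.8%. When each summit was given only to the gene of its nearest TSS, 6 members had one, against 19.2%, the sixth being z. With summits of the stronger 2811 optimal peaks 7 members were found, against 25.7%, and with all pooled peaks 8, against 65.5%. With optimal summits inside one of the 5623 strongest peaks of all 3 replicates 7 members were found, against 26.5%. With summits inside such a peak of both others when replicate 1, 2 or 3 was left out, the counts were 8, 7 and 7, against 28.8%, 28.3% and 30.6%. The list holds only 10 genes and was drawn up with earlier results of these data known, so these counts describe it and no more.

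**Figure D1:**
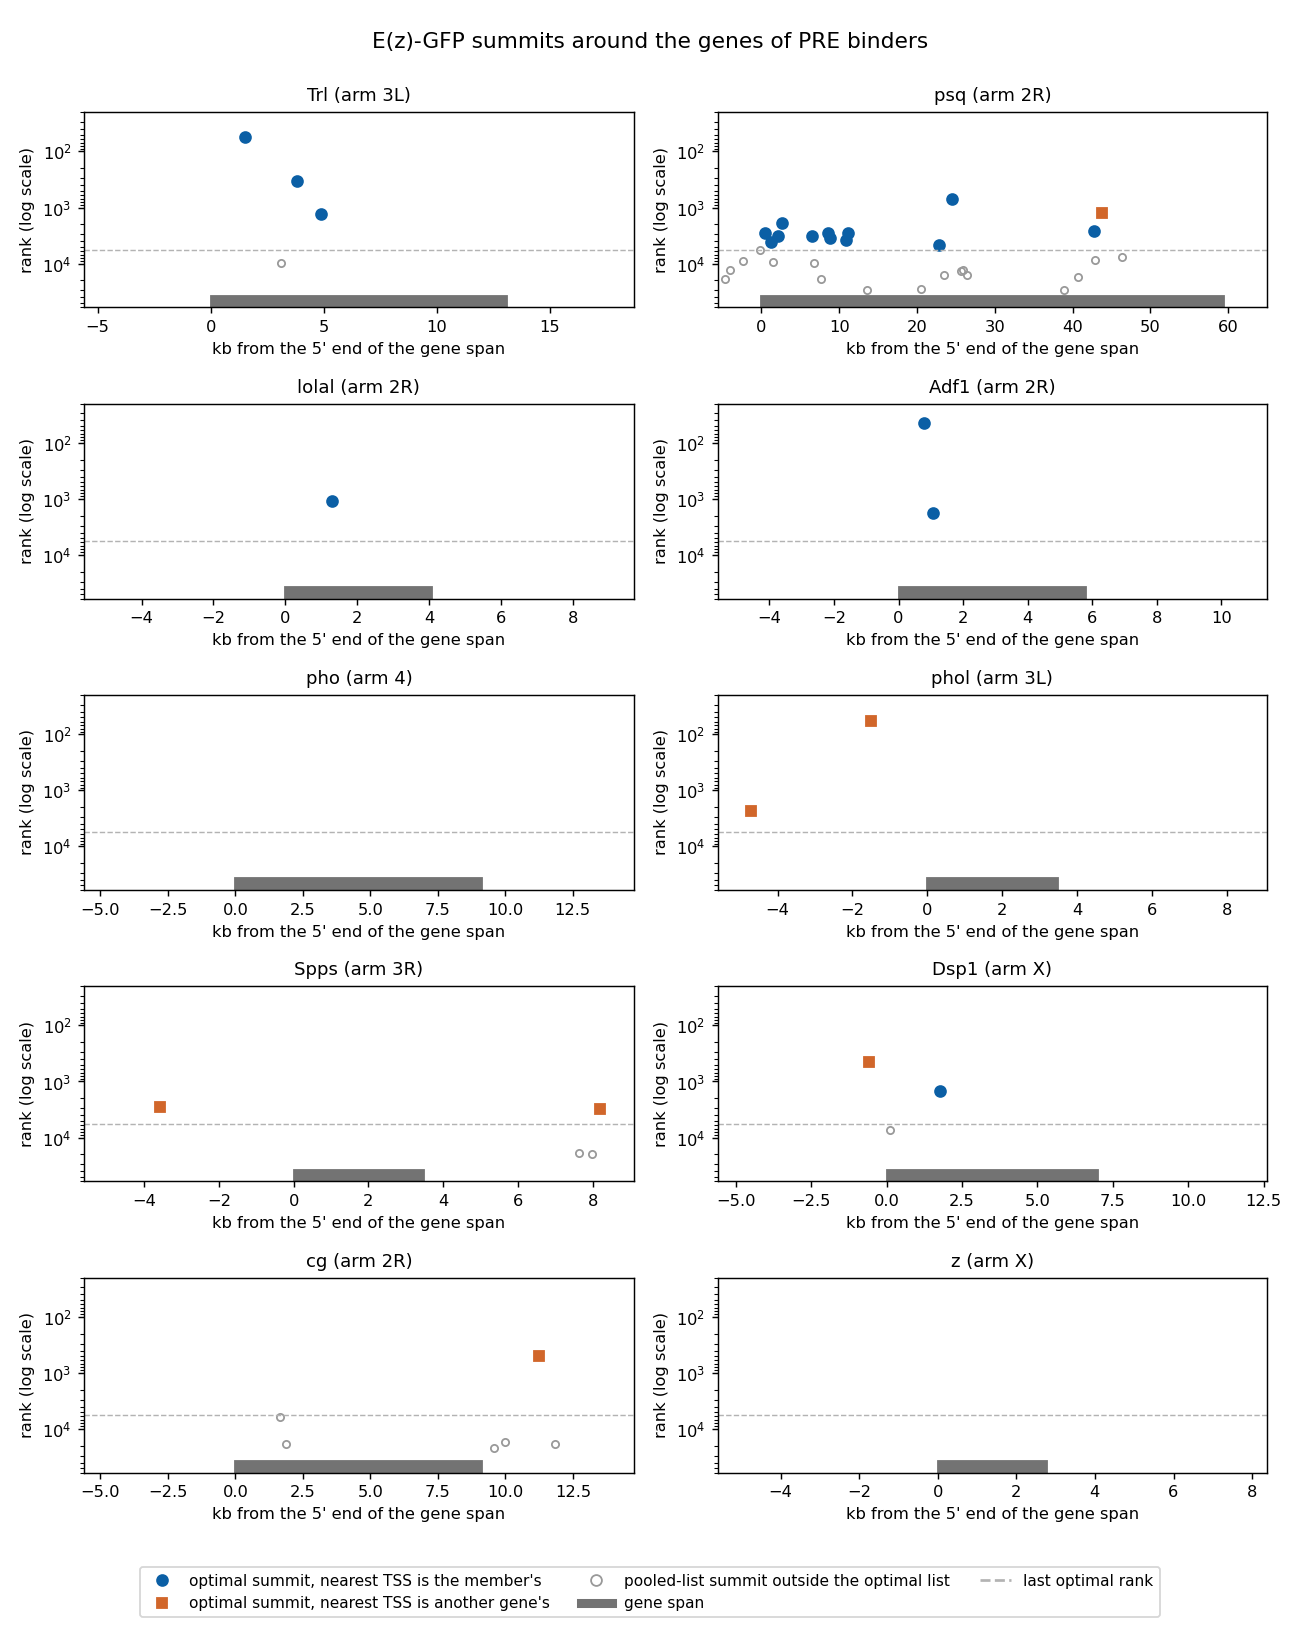
Optimal summits around the 10 genes, with the distance in kb from the 5′ end of the gene span on the horizontal axis and the rank in the optimal or pooled list on a log vertical axis, strongest at the top. Optimal summits of Adf1 and Trl lie inside the gene spans near the 5′ end, the optimal summits of phol, Spps and cg lie outside the spans, and the panels of pho and z hold no summit of either list.

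Of the member summits with no annotated exon within 100 bp, the reference sequence (dm6, RefSeq genome release 6) is shown only for the 5 at Trl, phol and Dsp1. They include 2 of the 3 highest-ranked summits of all members, but the set was not drawn by rank. The highest-ranked member summit, at Adf1 (optimal rank 45), is not shown. Each runs 5′ to 3′ on the strand of the member gene, 100 bp to each side of the summit. Capitals mark GAGAG, the core word of GAGA factor and Psq sites, and GCCAT, the core word of Pho and Phol sites, on either strand.
Trl intron, optimal rank 56, chr3L:14759415-14759615, minus strand: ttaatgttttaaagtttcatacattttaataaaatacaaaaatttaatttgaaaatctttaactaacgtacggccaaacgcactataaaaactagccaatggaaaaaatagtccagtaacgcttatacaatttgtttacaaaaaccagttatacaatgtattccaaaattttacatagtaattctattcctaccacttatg
Trl intron, optimal rank 1309, chr3L:14756085-14756285, minus strand: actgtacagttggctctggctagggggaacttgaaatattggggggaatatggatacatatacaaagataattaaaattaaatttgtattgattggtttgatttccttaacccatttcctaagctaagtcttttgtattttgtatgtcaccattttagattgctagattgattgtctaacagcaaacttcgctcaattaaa
Upstream of phol, optimal rank 58, chr3L:9457694-9457894, minus strand: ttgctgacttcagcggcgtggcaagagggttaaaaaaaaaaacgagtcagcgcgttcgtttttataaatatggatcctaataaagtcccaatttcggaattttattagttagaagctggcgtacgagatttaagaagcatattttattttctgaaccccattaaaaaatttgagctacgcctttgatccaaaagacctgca
Upstream of Dsp1, optimal rank 451, chrX:16332914-16333114, plus strand: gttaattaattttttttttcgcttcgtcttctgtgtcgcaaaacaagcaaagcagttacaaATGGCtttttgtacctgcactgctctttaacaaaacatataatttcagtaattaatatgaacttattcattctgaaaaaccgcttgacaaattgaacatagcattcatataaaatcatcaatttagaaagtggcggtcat
Dsp1 intron, optimal rank 1461, chrX:16335279-16335479, plus strand: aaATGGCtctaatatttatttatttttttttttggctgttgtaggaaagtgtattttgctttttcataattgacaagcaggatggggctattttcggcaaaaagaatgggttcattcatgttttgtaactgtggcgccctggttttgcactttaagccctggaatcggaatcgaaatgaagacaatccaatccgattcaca
The printed windows at Trl and phol hold neither word, and each of the Dsp1 windows holds 1 GCCAT, read on the opposite strand as ATGGC. None of the 7 member windows with GAGAG is among the 5 printed, so the printed set does not represent the members.

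The GAGA class comprises Trl, which encodes GAGA factor, psq, which encodes Pipsqueak, another BTB-domain protein that binds GAGAG repeats, and lolal, which encodes a small BTB-domain protein that partners GAGA factor. Each of the 3 genes held summits whose nearest TSS was its own. Trl (FBgn0013263, 3L 14747929 to 14761049, minus strand) has 4 annotated starts and had 3 optimal summits in its 5′ part. The strongest, at 14759515 in an intron 1534 bp downstream of the most upstream start, ranked 56 in the optimal and pooled lists, and 47, 58 and 77 in replicates 1, 2 and 3 (mean 60.7 ± 15.2, SD, n = 3). A summit at 14757210, in a 5′ UTR 126 bp downstream of an internal start, ranked 336 in the optimal list and 593, 261 and 388 in the replicates (mean 414 ± 168, SD, n = 3). This exon is shared with the overlapping gene CG42507, and the position does not tell the 2 genes apart. The summit at 14756185, in an intron 1151 bp downstream of the nearest start, ranked 1309 in the optimal list and 925, 1113 and 2145 in the replicates (mean 1394 ± 657, SD, n = 3). It also lay in an intron of CG42507. The replicate ranges of the 3 summits did not overlap, and the order was the same in each replicate, strongest at the most upstream position.

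Pipsqueak's gene psq (FBgn0263102, 2R 10557888 to 10617280, plus strand) was the longest member, at 59.4 kb, and held 13 summits, all inside its span. That is 0.187 summits per kb of the searched 69.4 kb, against 0.042 per kb over the 6 arms. Of all 13945 protein-coding genes, 23 (0.165%) had 13 or more summits by the same rule. This share takes in genes of every length, with a median span of 2.17 kb. It therefore does not say how common such a count is among genes as long as psq. Among genes with searched windows close in length to that of psq, some held as many summits or more, and others held none. The psq summits fell into 3 stretches: 9 of them lay between 433 and 11167 bp downstream of the most upstream start, 2 at 22846 and 24483 bp, and 2 in an intron at 42694 and 43779 bp. At psq no other protein-coding gene's searched window took in any of the 13 summits. The strongest in the optimal list, 1315 bp upstream of an internal start, ranked 700, and 592, 714 and 1043 in replicates 1, 2 and 3 (mean 783 ± 233, SD, n = 3). With the closest replicate summit in place of the strongest covering peak, its ranks were 4548, 714 and 2983 (mean 2748 ± 1928, SD, n = 3). The weakest of the 13 ranked 4624, and their median rank was 2805, close to the middle of the list.

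The replicates differed in which psq summits were strong. The summit 433 bp downstream of the most upstream start ranked 678 in replicate 3, and 5207 and 4566 in replicates 1 and 2. It was the highest psq peak in replicate 3, whereas in replicates 1 and 2 the summit near the internal start was. The summit at 6522 bp from the most upstream start ranked 1214 in replicate 3, 8147 in replicate 1 and 3592 in replicate 2. The opposite held 113 bp downstream of an internal start, with ranks of 2562 and 2370 in replicates 1 and 2, and 8798 in replicate 3. Of the 13 summits, 9 lay inside a relaxed peak of every replicate, and 4 inside one of the 5623 strongest peaks of every replicate. The summit 171 bp upstream of an internal start lay inside a peak of replicate 3 only, at rank 3820. The last psq summit, of optimal rank 1244, lay inside peaks of replicates 2 and 3, ranked 1411 and 2795. In replicate 1 no peak covered it, and a summit within 200 bp ranked 824. Summits only 211 bp apart, 2466 and 2255 bp upstream of an internal start, shared a single peak of rank 2769 in replicate 2. In replicate 1 they lay in separate peaks, ranked 2713 and 8921, and in replicate 3 only the second was covered, at rank 3099.

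At lolal (FBgn0022238, 2R 18154095 to 18158192, minus strand) a single summit lay in the 5′ UTR, 3 bp from an annotated start. It ranked 1107 in the optimal list and 1754, 789 and 849 in the replicates (mean 1131 ± 541, SD, n = 3). Of the 5 annotated starts of lolal it marked an internal one, 1303 bp downstream of the most upstream start, and no other pooled peak lay in the searched 14.1 kb.

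Adf1 (FBgn0284249, 2R 6662265 to 6668085, plus strand), which encodes a MADF-domain transcription factor, held the highest-ranked summit of all members. This summit, at 6663070 in an intron 800 bp downstream of the nearest start, ranked 45 in the optimal list and 28, 62 and 69 in the replicates (mean 53.0 ± 21.9, SD, n = 3). By best rank, 133 of the 13945 protein-coding genes were at or before Adf1, with genes that share a summit counted each. A second Adf1 summit lay 274 bp further downstream and ranked 1802 in the optimal list, and 1694, 3921 and 3271 in the replicates. All 6 replicate ranks placed the upstream summit before the downstream one, and no other pooled peak lay within 5 kb of Adf1.

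The genes of the Pho pair differed. Both pho and phol encode zinc finger proteins related to mammalian YY1, and Pho with Sfmbt forms the complex PhoRC. The gene phol (FBgn0035997, 3L 9452803 to 9456281, minus strand) had a summit 1513 bp upstream of its start that ranked 58 in the optimal list, and 43, 63 and 87 in the replicates (mean 64.3 ± 22.0, SD, n = 3). That summit lay in an intron of CG3552, 118 bp from the start of CG3552, and 5 protein-coding genes took it in by the rule. A further summit 4708 bp upstream of phol, 61 bp from the start of CG44838, ranked 2391 in the optimal list, and 1773, 2905 and 4154 in the replicates. No summit lay inside the phol span.

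By contrast, pho (FBgn0002521, 4 1172469 to 1181628, minus strand) had no peak of the optimal or pooled list within 5 kb. The closest optimal summit was 59120 bp from the gene, nearest to the start of Cals. In the relaxed lists, replicate 1 had 3 peaks upstream of pho, the best at rank 19581 and 2841 bp from the start, and replicates 2 and 3 had none. Chromosome 4 as a whole held 20 of the 5623 optimal summits (0.356%), a share that was not set against the length of the arm.

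Dsp1 (FBgn0278608, X 16333612 to 16340624, plus strand), the gene of an HMG-box protein, had a summit 598 bp upstream of its start that ranked 451 in the optimal list, and 481, 355 and 794 in the replicates (mean 543 ± 226, SD, n = 3). It lay in an intron of CG9921, whose start was nearer, at 586 bp. The other Dsp1 summit, in a Dsp1 intron 805 bp upstream of an internal start, ranked 1461 in the optimal list, and 1832, 1260 and 1775 in the replicates (mean 1622 ± 315, SD, n = 3). The replicate ranges of the 2 Dsp1 summits did not overlap.

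The zinc finger gene cg (FBgn0000289, 2R 14173693 to 14182838, plus strand) had a single optimal summit, 2116 bp past its 3′ end and 11261 bp from its start. It ranked 495 in the optimal list, and 631, 347 and 964 in the replicates (mean 647 ± 309, SD, n = 3), and the start of Sdb was 250 bp away. Inside cg, 1659 bp downstream of the start, the pooled list had a peak at rank 6013, outside the optimal list, whose last rank was 5623.

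Spps (FBgn0039169, 3R 24223445 to 24226934, minus strand), which encodes a zinc finger factor of the Sp1 type, had the lowest-ranked leading summit of the 8 genes. One lay 3587 bp upstream of Spps and 41 bp from the start of mask, ranked 2900 in the optimal list, and lay inside a peak of replicate 3 only, at rank 4803. The other lay 8189 bp downstream of the Spps start, in an intron of twin and 27 bp from the start of CG17786. It ranked 3095 in the optimal list, and 6996, 4249 and 1220 in the replicates (mean 4155 ± 2889, SD, n = 3). Neither summit lay inside one of the 5623 strongest peaks of all 3 replicates.

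The gene of Zeste, z (FBgn0004050, X 2447769 to 2450550, plus strand), a factor known from pairing-dependent gene regulation, fell just outside the rule. An optimal summit of rank 3209 lay 5027 bp past its 3′ end, 27 bp beyond the 5 kb limit. It ranked 3843, 2968 and 4300 in the replicates. It was in an intron of boi, which encodes a Hedgehog co-receptor, and no protein-coding TSS was nearer than that of z, at 7621 bp. Within 5 kb of z the pooled list held no peak, replicate 1 none, replicate 2 a single peak at rank 18573 and replicate 3 had 4, the best at rank 5619.

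Ordered by the leading summit, the members fell into 3 tiers. The leading summits of phol, Dsp1, cg and Spps were each nearest to the start of another gene. Adf1, Trl and phol, with optimal ranks of 45, 56 and 58, had overlapping replicate ranges (28 to 69, 47 to 77 and 43 to 87), so their order was within the spread between replicates. All 9 of these replicate ranks were below the lowest of the next tier, 347. Dsp1, cg, psq and lolal, with optimal ranks of 451, 495, 700 and 1107, each overlapped its neighbour in the order. The place of psq rests on the strongest covering peaks, since its mean replicate rank was 2748 with the closest replicate summits, past the 1131 of lolal. The leading Spps summit, at 2900, was covered by a peak of 1 replicate, ranked after every replicate rank of lolal. The other Spps summit, at 3095, was covered in all 3 replicates. It ranked 1220 in replicate 3, inside the lolal range of 789 to 1754, so the third tier rests on the choice of summit. An exact permutation test of 3 against 3 ranks could not go below 0.1, and the leading summits were picked by their rank, so the tiers are a description.

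**Figure D2:**
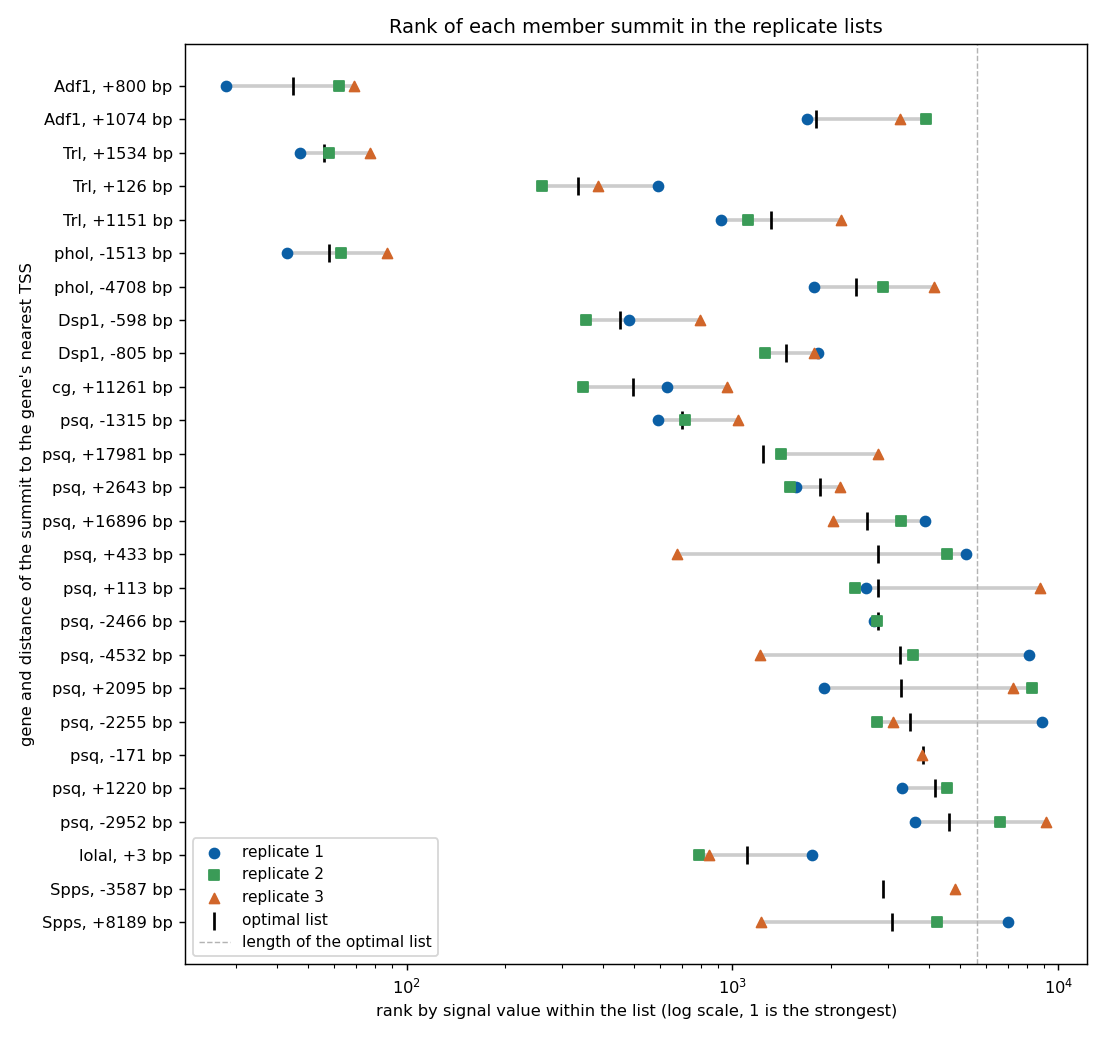
Rank of each of the 26 summits by signal value in replicates 1, 2 and 3 (points) and in the optimal list (black ticks), on a log horizontal axis. The vertical axis gives the member gene and the distance of the summit to the nearest TSS of that gene, also where another gene's TSS was nearer. Grey bars span the replicates with a covering peak. The leading summits of Adf1, Trl and phol sit between 28 and 87 in all 3 replicates, while the psq summits spread from 592 to 9187.

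Over all members, 15 of the 26 summits (57.7%) lay inside one of the 5623 strongest peaks of every replicate, against 55.9% of all optimal summits. Shares in replicates 1, 2 and 3 were 76.9%, 84.6% and 80.8% of the member summits, against 84.1%, 83.2% and 73.5% of all optimal summits. The 13 summits outside psq account for 11 of the 15. The median optimal rank of the member summits was 2122.5, against 2812 for the whole list. Within 1 kb of any protein-coding TSS lay 50% of the member summits and 40.8% of all optimal summits. All 26 had the highest −log10 q-value of the list that the authors deposited, 3.97, as did 83.0% of all optimal peaks.

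**Figure D3:**
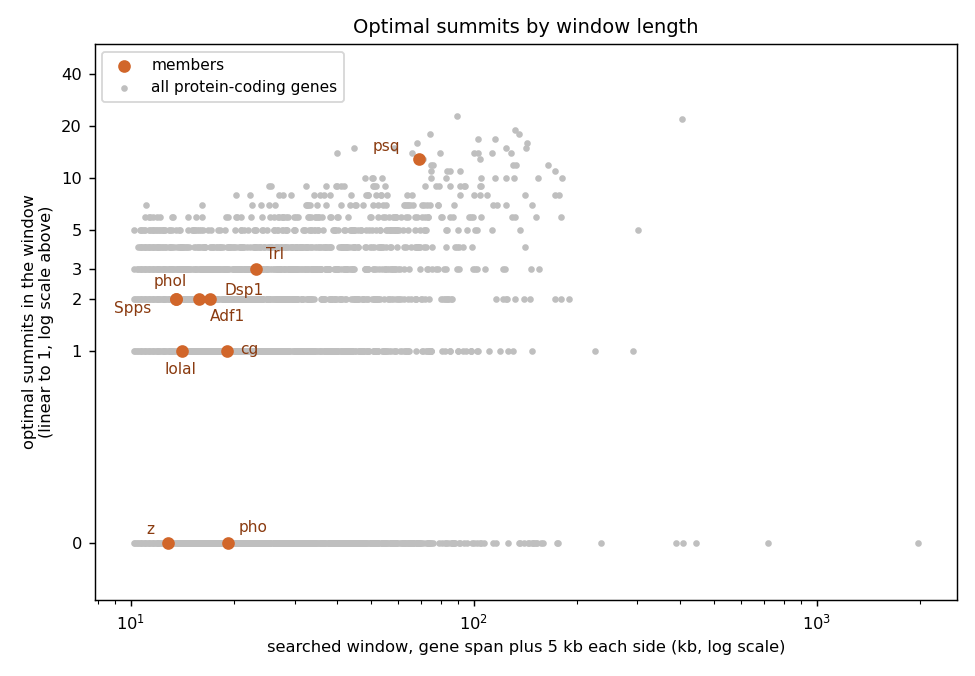
Number of optimal summits in the span plus 5 kb each side (vertical axis, linear up to 1 and log above) against the length of that window in kb (log horizontal axis), for the members (orange) and all 13945 protein-coding genes (grey). The window of psq, at 69.4 kb and 13 summits, stands near the upper edge, and the other 9 members had 0 to 3 summits in 12.8 to 23.1 kb.

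Binding words of the members' own products were counted in the 201 bp around each summit, on both strands, with overlapping matches counted separately. GAGAG was in 7 of 26 windows (26.9%) and in 28.2% of the windows of all 5623 optimal summits. GCCAT was in 8 (30.8%), against 26.7% of all. GTGT, the word of Cg, was in 23 (88.5%), against 76.2%, and GAAAA, the word of Dsp1, in 21 (80.8%), against 74.4%. A Zeste word (NGAGNG with C or T at each N) was in 8 (30.8%), against 28.0%. A word of the Sp/KLF family to which Spps belongs (NNGGNG with A or G at the leading Ns and C or T at the last) was in 13 (50%), against 30.6%, and that gap was smaller with 250 bp each side, at 76.9% against 69.1%. Some words can overlap, GAGAG with a Zeste word among them, and a match is a description of reference letters, not a bound site.

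The share of member windows with GAGAG, 26.9%, was near that of all optimal summits, 28.2%. Of the 7 windows with GAGAG, 4 were at psq, which supplied 13 of the 26 member windows. These 4 lay between 6522 and 11167 bp from its most upstream start, with 4, 5, 2 and 3 matches. The lolal window held 3 matches, that of the Spps summit near CG17786 held 4, and the more distant phol window held 1. The psq window 171 bp upstream of an internal start also held 10 GTGT matches, the most of any member window. All 3 Trl windows and both Adf1 windows lacked GAGAG. None of the 3 member summits ranked within the first 100, at Adf1, Trl and phol, had GAGAG or GCCAT in its window, as the printed Trl and phol sequences show. Lacking either word was the common state, since only 28.2% of all optimal windows held GAGAG and 26.7% held GCCAT. The Trl window of rank 56 had a GC content of 25.4%, against a median of 39.8% over the member windows and 35.8% over all optimal windows. It was the lowest of the 26 member windows, and 241 of the 5623 optimal windows were at or below that value.

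**Figure D4:**
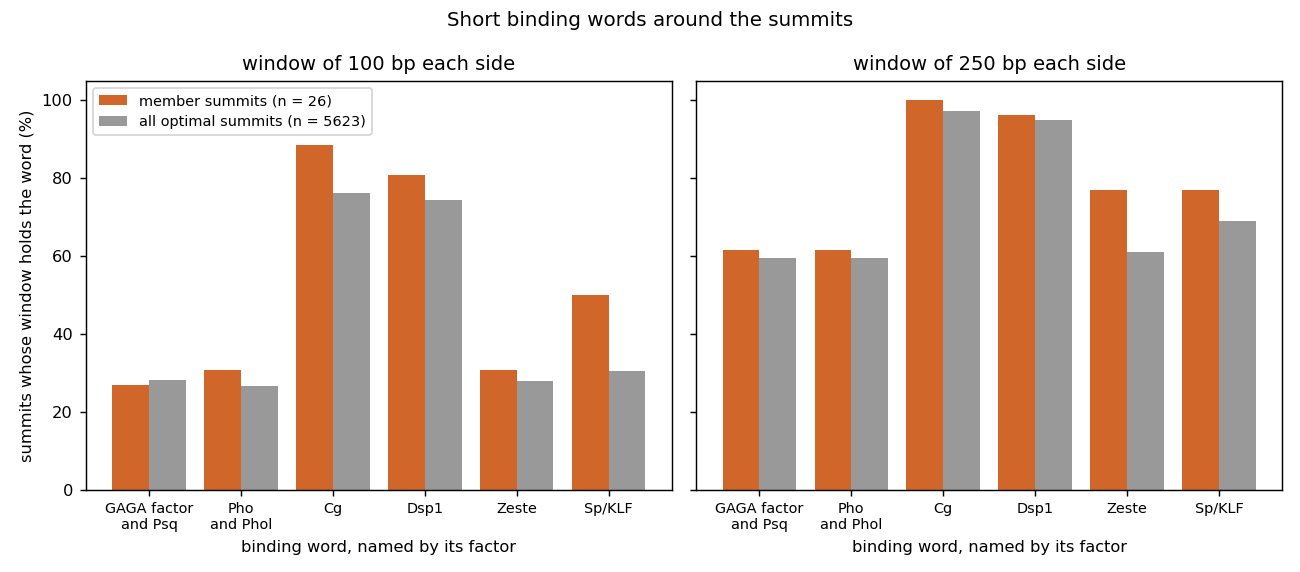
Percentage of summits whose window holds a binding word, for the 26 member summits (orange) and all 5623 optimal summits (grey), with windows of 100 bp (left) and 250 bp (right) each side. Words are named by their factor. In the narrow windows the largest gap is that of the Sp/KLF words, 50% against 30.6%, and in the wide windows that of the Zeste words, 76.9% against 61.1%.

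The other genes of the pathway were taken from lists of 2 further binders of Polycomb response elements, 8 PRC2 genes, 9 genes of PRC1 and PhoRC, and 2 genes of the Polycomb deubiquitinase. By the same rule 13 of these 21 genes had an optimal summit (61.9%), against 8 of 10 members and 37.0% of all protein-coding genes. Within 1 kb of their own TSS, 7 of the 21 had one, against 5 of 10 members and 16.1% of all protein-coding genes. For PRC1 and PhoRC this closer count was 5 of 9. The further binders grh and crol both had summits, with 9 at grh, the best at rank 439, and 1 at crol at rank 3667. PRC1 and PhoRC genes had summits at 8 of 9, with ph-p at a best rank of 42, Pc at 69 and Psc at 108, and none at Scm. For Pc, the rank 69 summit was 93 bp from the start of CG11309. PRC2 genes had summits at 3 of 8, and for Caf1-55 and Pcl the best, at ranks 19 and 366, was nearest to the start of Art3 and of pAbp. At jing, a gene of 120 kb, the best ranked 55 and lay 45 bp from a jing start, and E(z), esc and escl were among those with none. Asx and calypso had none.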

How the data were processed

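Peak lists of E(z)-GFP ChIP-seq on dm6 were used, from 3 biological replicates that the sample descriptions put in 1 group. The authors deposited a relaxed list for each replicate, another for the pooled replicates and an optimal list, which they cut at an irreproducible discovery rate (per the text files deposited with the samples). Peak caller, aligner and versions: not given in the sources used here. Peaks were ranked within a list by the signal value the authors deposited, whose scaling is not stated. Their deposited −log10 q-value was described only, and their deposited summit offset, added to the peak start, gave the summit. Lists on dm3 were not used here.

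Genes and TSSs came from Ensembl release 115 (BDGP6.54), and sequence from RefSeq genome release 6. No dm6 peak ended past these arms. Coordinates are 1-based. A replicate rank is that of the strongest replicate peak covering the summit, and a mean was printed only for summits covered in all 3. Python 3.11.15, numpy 2.4.6 and pandas 2.3.3 were used, and the assignment was tested on simulated data. Named genes were the members, genes of the nearest TSS, and per pathway list up to 3 with the highest-ranked summit and up to 3 without. Members and lists were chosen with earlier results of these data known. Alternatives covered distance, peak threshold, replicates, matching, TSS choice and word window. The nearest-gene rule and the count without psq were added after seeing the data.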

Additional observations from a re-analysis of the deposited data

How the results depend on the processing

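The 8 of 10 members with a summit became 5 within gene spans alone and 5 within 1 kb of a TSS, where the background was 11.6% and 16.1% of all protein-coding genes. With all pooled peaks the background was 65.5%, and with each summit given only to its nearest gene 19.2%, for 8 and 6 members. None of these backgrounds was matched for gene length. The 26 member summits became 8 within 1 kb of a TSS, 52 with all pooled peaks, 15 when found in all 3 replicates and 13 without psq. Leaving out each replicate in turn (optimal peaks found in both others) gave 7 to 8 members, 15 to 19 summits and a background of 28.3% to 30.6%. The lowest number of summits, 15, was without replicate 2. Of its 13 summits psq kept 7 without replicate 1, 4 without replicate 2 and 7 without replicate 3. Spps kept 1 summit without replicate 1 and 0 without replicate 2 or 3. Flanks of 2 kb and 10 kb gave 6 and 9 members, z being the gene gained at 10 kb. Windows of 250 bp each side raised the number of member windows with the GAGA factor and Psq word to 16 (61.5%, against 59.5% of all optimal summits), with the Pho and Phol word to 16 (61.5%, against 59.6%), with a Zeste word to 20 (76.9%, against 61.1%) and with an Sp/KLF word to 20 (76.9%, against 69.1%). Longer windows hold more matches in both. With 250 bp each side, windows of neighbouring summits 211 and 284 bp apart at psq and 274 bp apart at Adf1 overlap. The same match can then count in more than 1 member window. Matching a replicate summit within 200 bp gave 22 member summits with a match in all 3 replicates, against 21 by cover. Taking the closest replicate summit in place of the strongest covering peak gave the leading psq summit a mean replicate rank of 2748, against 783, and the cause was not tested. No paired analysis was possible because the labels give 1 group.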
